A study of Mus musculus with 4 samples.

Results

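The stem cell ageing signature examined here is a set of 32 mouse genes whose messenger RNA has been reported to rise in hematopoietic stem cells of old mice. The members were chosen by name, and all 32 were found among the 24421 genes of the deposited count table. Itgb3, Vwf and Slamf1, which belong to the same signature, were left out of the set and are given separately. The RNA came from LSK cells, bone marrow cells that lack lineage markers and carry Sca1 and Kit, sorted from mice aged 13 to 15 months. There were 2 wild-type (WT) libraries and 2 libraries from animals heterozygous for the R248W mutation of the tumour suppressor p53 (p53R248W/+), a missense change in its DNA-binding domain. The sources used here state neither how the allele was made nor that replicates are different animals. The p-values therefore reflect the scatter of these 4 libraries alone, which may be technical. All animals were aged, so the age response itself was not measured.

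Hematopoietic stem cells sit at the top of the blood cell hierarchy and make up a small part of the LSK population, which also holds multipotent progenitors. With age the stem cell pool grows, its output shifts towards platelets and myeloid cells and away from lymphocytes, and its cells take up a recurring set of transcripts. That set is mixed in function: it includes adhesion molecules and receptors, metal-binding and stress proteins, enzymes, and proteins of membrane traffic. In a bulk LSK sample, fewer stem cells and less RNA per stem cell cannot be told apart.

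The libraries held 12111126 to 14820759 counted reads, and members took 0.283% to 0.375% of them. Kit and Ly6a, which encode the receptors used in the sort (Ly6a is Sca1), were detected in all 4 libraries, at 911 to 1182 CPM and 40.2 to 82.9 CPM (CPM, the reads of a gene scaled to a common library size with TMM factors). Marker lists of other marrow cells were mixed. Of the B cell genes Pax5 was at 0 in all libraries and Cd79b at 4.67 to 20.2 CPM, and of the T and NK cell genes Cd3g was at 0 and Klrb1c at 43.6 to 58.1 CPM. The stromal genes Cxcl12, Col3a1, Pdgfra, Dcn and Adipoq were at 0, while Pdgfrb was at 20.9 to 45.6 and Col1a2 at 3.47 to 32.8 CPM. Of the erythroid genes Alas2 was at 7.15 to 13.1 CPM; the 4 globin genes share nearly all their exon bases with another gene, so their counts of 0 are not read. The endothelial marker Cdh5 was at 0 in 3 libraries and at 1.82 CPM in p53R248W/+ replicate 1. Cldn5, another endothelial gene, was at 23.9 CPM in the WT pair replicate 1 against 1.19 to 4.05 CPM in the others.

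The comparison asks which ageing signature transcripts differ in aged LSK cells when 1 p53 allele carries R248W. No member differed between genotypes past the threshold, an adjusted p of 0.05 over all 13296 tested genes (edgeR quasi-likelihood test with Benjamini-Hochberg adjustment). Of the 32 members, 31 had enough reads to be tested, and their adjusted p ranged from 0.824 to 0.999. No gene of the whole table passed either (0.00% called), and 5.87% of all tested genes had an unadjusted p under 0.05. Among members 2 of 31 (6.45%) did, clusterin (Clu) and the chemotactic receptor gene Gpr183, a share near that of all genes. Both were lower in p53R248W/+, as were 2.86% of all tested genes at that level. DESeq2 called 7 genes of the table (0.0424%), none of them a member, and at an unadjusted p under 0.05 it had 3 of 32 members and 945 of 16498 genes. limma-voom called 0 genes and had 3 of 31 members and 618 of 13296 genes at an unadjusted p under 0.05.

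Most members had lower fitted values in p53R248W/+, by small amounts. The log2 fold change, p53R248W/+ over WT, was negative for 23 of 31 members (74.2%) against 50.0% of all tested genes, and the members' median was -0.21 against 0.00 over all genes. Both values moved with single libraries: without p53R248W/+ replicate 2 the median was -0.06 with 17 of 32 members negative, and without p53R248W/+ replicate 1 it was -0.47 with 28 of 32 negative. The genotypes did not overlap, meaning that both libraries of a genotype lay on the same side of both libraries of the other, for 9 of 31 members (29.0%) against 33.6% of all tested genes. Of these 9, 8 were lower in p53R248W/+ (25.8% of members, against 16.6% of all genes) and 1 was higher (3.23% against 16.9%). The 8 were Tm4sf1, Clu, Gpr183, Fhl1, Wwtr1, Clca3a1, Gda and Nrg4, and the higher one was Trpc1. The 95% intervals held 0 for 29 of the 31 members. A 2-fold lower level, 1 log2 unit, lay inside the interval for 14 members, and a 2-fold higher level for 5. For 15 members the whole interval lay between these bounds.

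**Figure D1:**
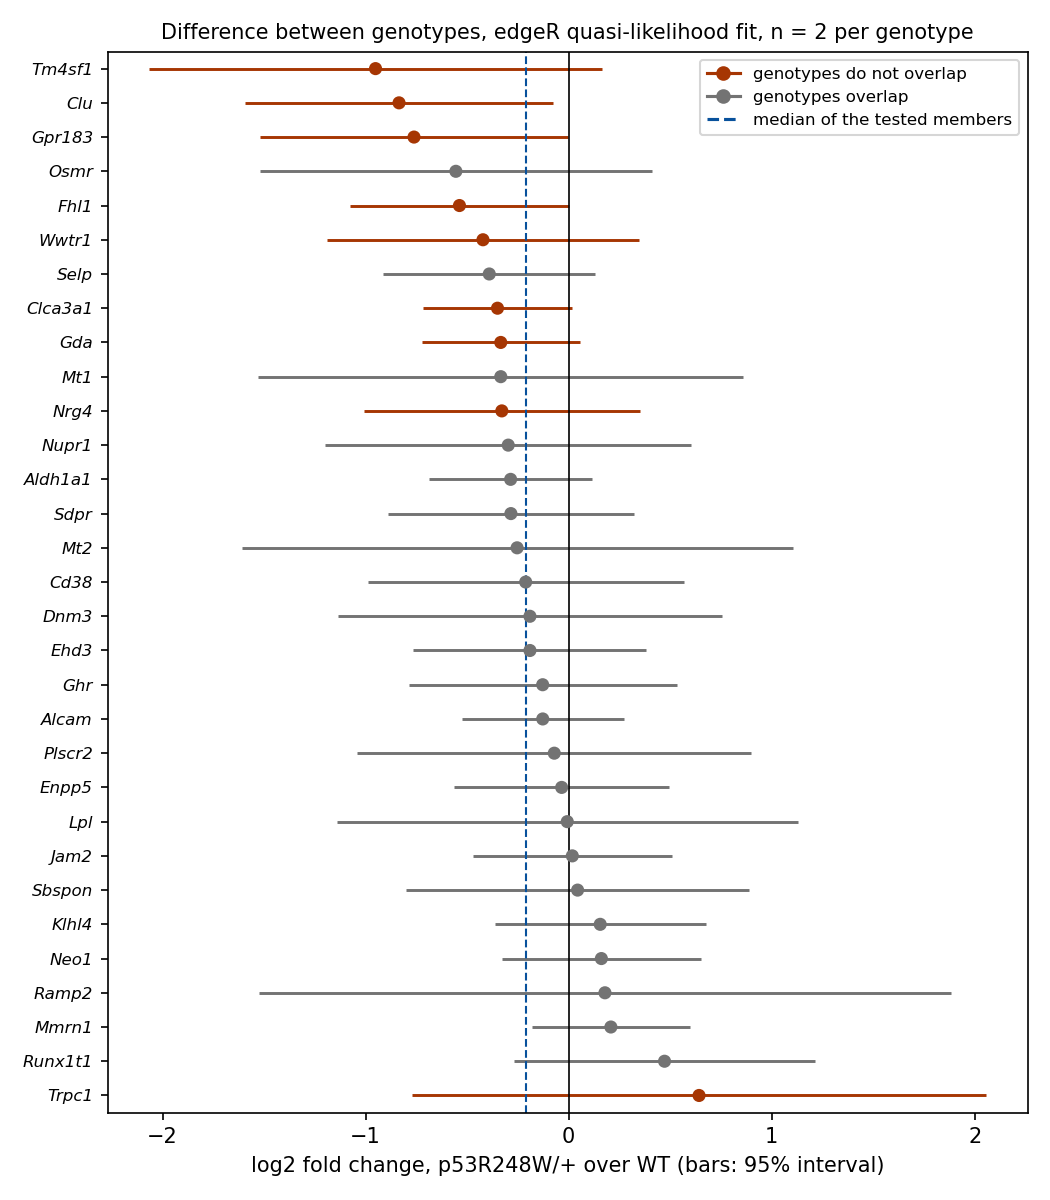
Log2 fold change of each tested ageing signature gene (x axis, p53R248W/+ over WT, with the 95% interval as a bar), ordered from lowest to highest, n = 2 libraries per genotype. Genes whose genotypes do not overlap are in brown; the dashed line is the members' median of -0.21 (-0.06 without p53R248W/+ replicate 2), and only Clu and Gpr183 have intervals that end below 0.

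Among the 11 surface receptors and adhesion molecules, 7 had negative and 4 positive log2 fold changes, with a median of -0.13. Gpr183, a receptor for oxysterols that guides immune cells within tissues (mm10 chromosome 14, 121952331 to 121965193, minus strand), was at 55.0 and 47.2 CPM in the WT pair against 30.8 and 29.4 CPM in p53R248W/+. Both p53R248W/+ libraries lay close together and below both WT libraries, and the difference on the log2 scale was -0.76 ± 0.36 (SE, with 2 libraries a genotype; adjusted p = 0.824, edgeR quasi-likelihood test). It stayed between -0.86 and -0.65 when any 1 library was left out. Selp encodes P-selectin, which tethers leukocytes and platelets to vessel walls (chromosome 1, 164115264 to 164150026, plus strand). It was at 351 and 240.2 CPM in the WT pair and at 290.0 and 158 CPM in p53R248W/+. The genotypes overlapped, because p53R248W/+ replicate 1 lay between the WT libraries and only replicate 2 lay below them. The difference, -0.39 ± 0.25 (log2, SE), became -0.03 without p53R248W/+ replicate 2 and -0.91 without p53R248W/+ replicate 1. Selp shares 438 exon bases with Gm16548, so its count is less certain.

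Alcam, an adhesion molecule of the immunoglobulin family (chromosome 16, 52248996 to 52452997, minus strand), was at 264 and 221 CPM in the WT pair and at 204 and 241 CPM in p53R248W/+, a log2 fold change of -0.13 ± 0.19 (SE). The WT and p53R248W/+ values interleaved. Jam2, a junctional adhesion molecule, was at 142 and 128 CPM in the WT pair and at 159.6 and 112 CPM in p53R248W/+. Neo1 (neogenin), a receptor for netrins and repulsive guidance molecules, was at 167 and 148 CPM in the WT pair and at 216 and 134 CPM. For both genes p53R248W/+ replicate 1 was the highest of the 4 libraries and p53R248W/+ replicate 2 the lowest. Ghr, the growth hormone receptor, was at 107 and 92.7 CPM in the replicates 1 of WT and p53R248W/+ and at 61.4 and 59.6 CPM in the replicates 2, so the libraries of a genotype differed more than the genotypes. Osmr, a receptor chain for oncostatin M, was at 26.3 and 57.7 CPM in the WT pair and at 38.4 and 17.1 CPM in p53R248W/+. Its log2 fold change of -0.56 ± 0.46 (SE) turned to 0.12 without WT replicate 2.

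Cd38, an ectoenzyme that breaks down NAD, was at 34.7 and 47.9 CPM in the WT pair and at 35.7 and 35.5 CPM in p53R248W/+. WT replicate 2 alone stood higher. Trpc1, a cation channel subunit, was the single member whose p53R248W/+ values both exceeded its WT values, at 8.70 and 14.3 CPM against 8.30 and 6.10 CPM. The gap between WT replicate 1 and p53R248W/+ replicate 1 was small, and the log2 fold change of 0.64 ± 0.67 (SE; adjusted p = 0.914, edgeR quasi-likelihood test) was 0.27 without p53R248W/+ replicate 2. Ramp2, an accessory subunit of the adrenomedullin receptor, was the lowest of the tested members by CPM, at 5.37 and 4.14 CPM in the WT pair and 5.33 and 5.45 CPM in p53R248W/+, a difference of 0.18 ± 0.81 (log2, SE) that became 0.01 without WT replicate 2.

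The membrane protein gene Tm4sf1 (chromosome 3, 57287064 to 57301919, minus strand) and the transcriptional coactivator gene Wwtr1 (chromosome 3, 57455644 to 57575910, minus strand) lie 153.7 kb apart on the same strand. Wwtr1 encodes TAZ, which acts with the TEAD factors downstream of the Hippo pathway. Tm4sf1, at 30.6 and 17.3 CPM in the WT pair against 13.6 and 10.9 CPM in p53R248W/+, had the largest negative fold change of the tested members, -0.95 ± 0.53 (SE; adjusted p = 0.825, edgeR quasi-likelihood test). WT replicate 1 stood well above the rest, and without it the value was -0.48. Wwtr1 was at 46.1 and 41.7 CPM in the WT pair and at 34.1 and 31.2 CPM in p53R248W/+, a log2 fold change of -0.42 ± 0.36 (SE; adjusted p = 0.889, edgeR quasi-likelihood test). The 4 libraries fell in the same order for both genes, with WT replicate 1 highest and p53R248W/+ replicate 2 lowest. Neither gene passed the threshold. Clu, Gpr183, Fhl1, Gda and Nrg4 had the same library order as Tm4sf1 and Wwtr1. Among other neighbouring members, Mt1 and Mt2 shared a different order. Aldh1a1 and Gda (747.8 kb apart) did not share an order, nor did Nupr1 and Zg16 (424.7 kb apart). The 250 bases before the RefSeq starts of Tm4sf1 and Wwtr1 (GRCm38.p6, the assembly of mm10) are given. They are Tm4sf1 from chr3:57301989-57302238 and Wwtr1 from chr3:57575911-57576160, both on the minus strand. In promoter windows of 300 bases the p53 half-site was in 3.85% of members' windows and 8.36% of all windows. The TEAD motif was in 11.5% and 14.7%. Capitals mark the only match of the p53 half-site in Tm4sf1 and the only match of the TEAD motif GGAATG in Wwtr1.
Tm4sf1: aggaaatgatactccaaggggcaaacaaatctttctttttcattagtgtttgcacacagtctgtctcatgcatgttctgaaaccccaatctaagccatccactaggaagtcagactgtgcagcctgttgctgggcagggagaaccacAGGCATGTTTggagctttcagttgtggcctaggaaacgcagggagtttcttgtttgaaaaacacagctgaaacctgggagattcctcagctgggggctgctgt
Wwtr1: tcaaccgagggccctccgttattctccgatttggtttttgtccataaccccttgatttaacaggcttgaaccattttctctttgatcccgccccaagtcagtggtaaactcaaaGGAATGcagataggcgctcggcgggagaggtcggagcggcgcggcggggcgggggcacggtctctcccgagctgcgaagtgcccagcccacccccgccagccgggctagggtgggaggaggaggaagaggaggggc

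All 4 members that bind metals or respond to stress had negative log2 fold changes, with a median of -0.32 and no adjusted p under the threshold. Clu encodes clusterin, a secreted chaperone that binds misfolded proteins (chromosome 14, 65968483 to 65981545, plus strand). It was at 72.5 and 56.9 CPM in the WT pair against 46.6 and 24.4 CPM in p53R248W/+, without overlap. Its log2 fold change was -0.84 ± 0.36 (SE; adjusted p = 0.824, edgeR quasi-likelihood test), which became -1.41 when p53R248W/+ replicate 1 was left out and -0.47 when replicate 2 was. Nupr1, a small nuclear protein induced by stress, was at 42.2 and 23.7 CPM in the WT pair and at 29.0 and 24.3 CPM in p53R248W/+. Its highest and lowest values were the 2 WT libraries, and the difference of -0.30 ± 0.43 (log2, SE) turned to 0.18 without WT replicate 1.

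Mt1 and Mt2 encode metallothioneins, small cysteine-rich proteins that bind zinc, copper and cadmium, and lie 5.522 kb apart on chromosome 8 (94179089 to 94180327 and 94172618 to 94173567, both plus strand). Mt1 was at 20.7 and 12.3 CPM in the WT pair and at 16.7 and 8.76 CPM in p53R248W/+, and Mt2 at 11.4 and 9.68 against 10.7 and 6.69 CPM. The order of the libraries was the same for both genes, and for Selp and Ghr: WT replicate 1, p53R248W/+ replicate 1, WT replicate 2 and p53R248W/+ replicate 2. The genotypes therefore overlapped, and the log2 fold changes of -0.33 ± 0.57 for Mt1 and -0.25 ± 0.64 for Mt2 (SE) turned to 0.02 and 0.01 without p53R248W/+ replicate 2. Mt1 was also at 0.09 without WT replicate 1. The paired genes respond to metals through the factor MTF1, which binds metal response elements, and the 250 bases before their RefSeq starts (GRCm38.p6) are given for that reason: Mt1 from chr8:94178839-94179088 and Mt2 from chr8:94172368-94172617, plus strand. A further stretch of 30 bases just after the Mt1 start, chr8:94179089-94179118, is shown as well. Capitals mark matches, on either strand, of the core of the element, searched as TGCACNC and TGCGCNC.
Mt1 before the start: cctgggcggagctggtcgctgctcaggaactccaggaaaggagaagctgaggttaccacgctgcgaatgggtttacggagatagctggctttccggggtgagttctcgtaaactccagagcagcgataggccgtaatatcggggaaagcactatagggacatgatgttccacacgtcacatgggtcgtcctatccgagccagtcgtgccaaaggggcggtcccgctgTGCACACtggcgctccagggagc
Mt1 after the start: tcTGCACTCcgcccgaaaagTGCGCTCggc
Mt2 before the start: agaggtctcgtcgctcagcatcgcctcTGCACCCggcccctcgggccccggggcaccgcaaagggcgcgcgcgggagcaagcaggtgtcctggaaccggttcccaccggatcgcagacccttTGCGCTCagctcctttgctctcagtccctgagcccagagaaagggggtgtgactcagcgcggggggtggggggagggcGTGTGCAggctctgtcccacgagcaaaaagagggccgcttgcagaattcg
There was 1 match before the Mt1 start, 2 in the stretch after it and 3 before the Mt2 start. Of 8 companion genes of metal and oxidative stress, 5 had negative and 3 positive log2 fold changes, with a median of -0.36, and none passed over all genes. Mtf1 was at 130 and 64.0 CPM in the WT pair and at 62.9 and 75.1 CPM in p53R248W/+. The zinc exporter gene Slc30a1, another MTF1 target, was at 26.3 and 35.5 CPM in the WT pair and 32.1 and 29.7 CPM in p53R248W/+. The part of MTF1 in these values was not tested. Of the 8 companion genes, 2 were lower without overlap and 1 was higher, beside 16.6% and 16.9% of all tested genes. Txnrd1, a thioredoxin reductase, was at 129 and 101 CPM in the WT pair against 87.2 and 68.2 CPM, without overlap (log2 fold change -0.56 ± 0.26, SE). Srxn1 was at 24.6 and 18.3 CPM against 14.3 and 14.6 CPM, also without overlap (-0.57 ± 0.50, SE). Gclc, a subunit of the enzyme that starts glutathione synthesis, did not overlap in the other direction, at 93.9 and 74.6 CPM against 103 and 129 CPM (0.45 ± 0.26, SE).

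The 4 enzyme genes all had negative log2 fold changes, with a median of -0.16, but without p53R248W/+ replicate 2 Enpp5 was at 0.20 and Lpl at 0.48. Aldh1a1, which makes retinoic acid from retinaldehyde and marks stem cells in several tissues (chromosome 19, 20601982 to 20643462, plus strand), was at 307 and 391 CPM in the WT pair and at 329.7 and 241 CPM in p53R248W/+. Only p53R248W/+ replicate 2 lay below both WT libraries, and the log2 fold change of -0.29 ± 0.19 (SE) was -0.08 without it and -0.54 without p53R248W/+ replicate 1. Gda, the guanine deaminase (chromosome 19, 21391307 to 21472661, minus strand), was at 368 and 312 CPM in the WT pair against 308 and 229 CPM in p53R248W/+, or -0.33 ± 0.19 (SE; adjusted p = 0.825, edgeR quasi-likelihood test). The genotypes did not overlap, but WT replicate 2 and p53R248W/+ replicate 1 were almost level, and the difference was -0.14 when p53R248W/+ replicate 2 was left out and -0.57 when replicate 1 was. Enpp5, of the ectonucleotide phosphodiesterase family, was at 108 and 114 CPM in the WT pair and at 128 and 87.3 CPM in p53R248W/+. Lpl, the lipoprotein lipase, was at 14.0 and 25.8 CPM in the WT pair and at 27.9 and 10.3 CPM in p53R248W/+. The p53R248W/+ libraries were the highest and the lowest for both Enpp5 and Lpl.

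Of the 6 genes of membrane traffic and the cytoskeleton, 5 had negative log2 fold changes, with a median of -0.19; without p53R248W/+ replicate 2 Plscr2 was at 0.40 and Ehd3 at 0.0014. Fhl1, a LIM-domain protein of the cytoskeleton (chromosome X, 56731761 to 56793346, plus strand), was at 139 and 106 CPM in the WT pair against 94.0 and 73.8 CPM in p53R248W/+. The genotypes did not overlap, and the log2 fold change of -0.54 ± 0.26 (SE; adjusted p = 0.824, edgeR quasi-likelihood test) ranged from -0.73 to -0.33 when single libraries were left out. Sdpr, a coat protein of caveolae, was at 78.5 and 147 CPM in the WT pair and at 86.9 and 98.5 CPM in p53R248W/+. Both p53R248W/+ values lay between the WT values, and the log2 fold change of -0.28 ± 0.29 (SE) turned to 0.24 without WT replicate 2. Ehd3, an ATPase of endosomal recycling, was at 84.5 and 91.0 CPM in the WT pair and at 87.9 and 64.6 CPM in p53R248W/+. Plscr2, of the phospholipid scramblase family, was at 27.2 and 29.3 CPM in the WT pair and at 37.3 and 14.8 CPM in p53R248W/+. WT replicates were close for both genes, and p53R248W/+ replicate 2 was the low library. Dnm3, a dynamin GTPase that pinches off membrane vesicles, was at 22.6 and 26.3 CPM in the WT pair and at 20.0 and 23.0 CPM in p53R248W/+, or -0.19 ± 0.45 (SE), and at -0.07 without WT replicate 2. Klhl4, a kelch-repeat protein, was the exception in sign at 0.16 ± 0.25 (SE), with 118 and 86.6 CPM in the WT pair and 116 and 111 CPM in p53R248W/+.

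The secreted and matrix genes split evenly, with 2 negative and 2 positive among the 4 tested. Mmrn1 encodes multimerin, a carrier of coagulation factor V in platelets and endothelium (chromosome 6, 60944317 to 60989378, plus strand), and was the member with the most reads. It was at 473 and 708 CPM in the WT pair and at 786 and 576 CPM in p53R248W/+. WT replicate 1 and p53R248W/+ replicate 1 were the extremes, and the log2 fold change of 0.21 ± 0.19 (SE) turned to -0.05 without WT replicate 1 and to -0.04 without p53R248W/+ replicate 1. Clca3a1, of the calcium-activated chloride channel accessory family (chromosome 3, 144729677 to 144760977, minus strand), was at 368 and 376 CPM in the WT pair against 329 and 253 CPM in p53R248W/+. The WT libraries were nearly equal and above both p53R248W/+ libraries, with a log2 fold change of -0.35 ± 0.17 (SE; adjusted p = 0.824, edgeR quasi-likelihood test) that was -0.18 without p53R248W/+ replicate 2. Nrg4, a ligand of the receptor ErbB4, was at 68.0 and 51.6 CPM in the WT pair against 50.9 and 43.9 CPM, or -0.33 ± 0.32 (SE; -0.12 without WT replicate 1), and shares 166 exon bases with Fbxo22. Sbspon, a matrix protein with somatomedin and thrombospondin domains, was at 26.6 and 34.1 CPM in the WT pair and at 33.8 and 28.3 CPM. Zg16, a lectin of secretory granules, was the member not tested: it had 49 counts in WT replicate 2 and 4, 3 and 4 in WT replicate 1 and p53R248W/+ replicates 1 and 2. The last 3 libraries were at or just above the floor of 3 counts, so no fold is given.

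Runx1t1, the corepressor known as ETO that is fused to RUNX1 in a form of acute myeloid leukaemia (chromosome 4, 13743302 to 13895055, plus strand), stood on the higher side. It was at 32.6 and 71.8 CPM in the WT pair and at 82.0 and 61.7 CPM in p53R248W/+, with a log2 fold change of 0.47 ± 0.35 (SE; adjusted p = 0.872, edgeR quasi-likelihood test). WT replicate 1 alone was low: the value was 0.01 without it and 1.15 without WT replicate 2.

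**Figure D2:**
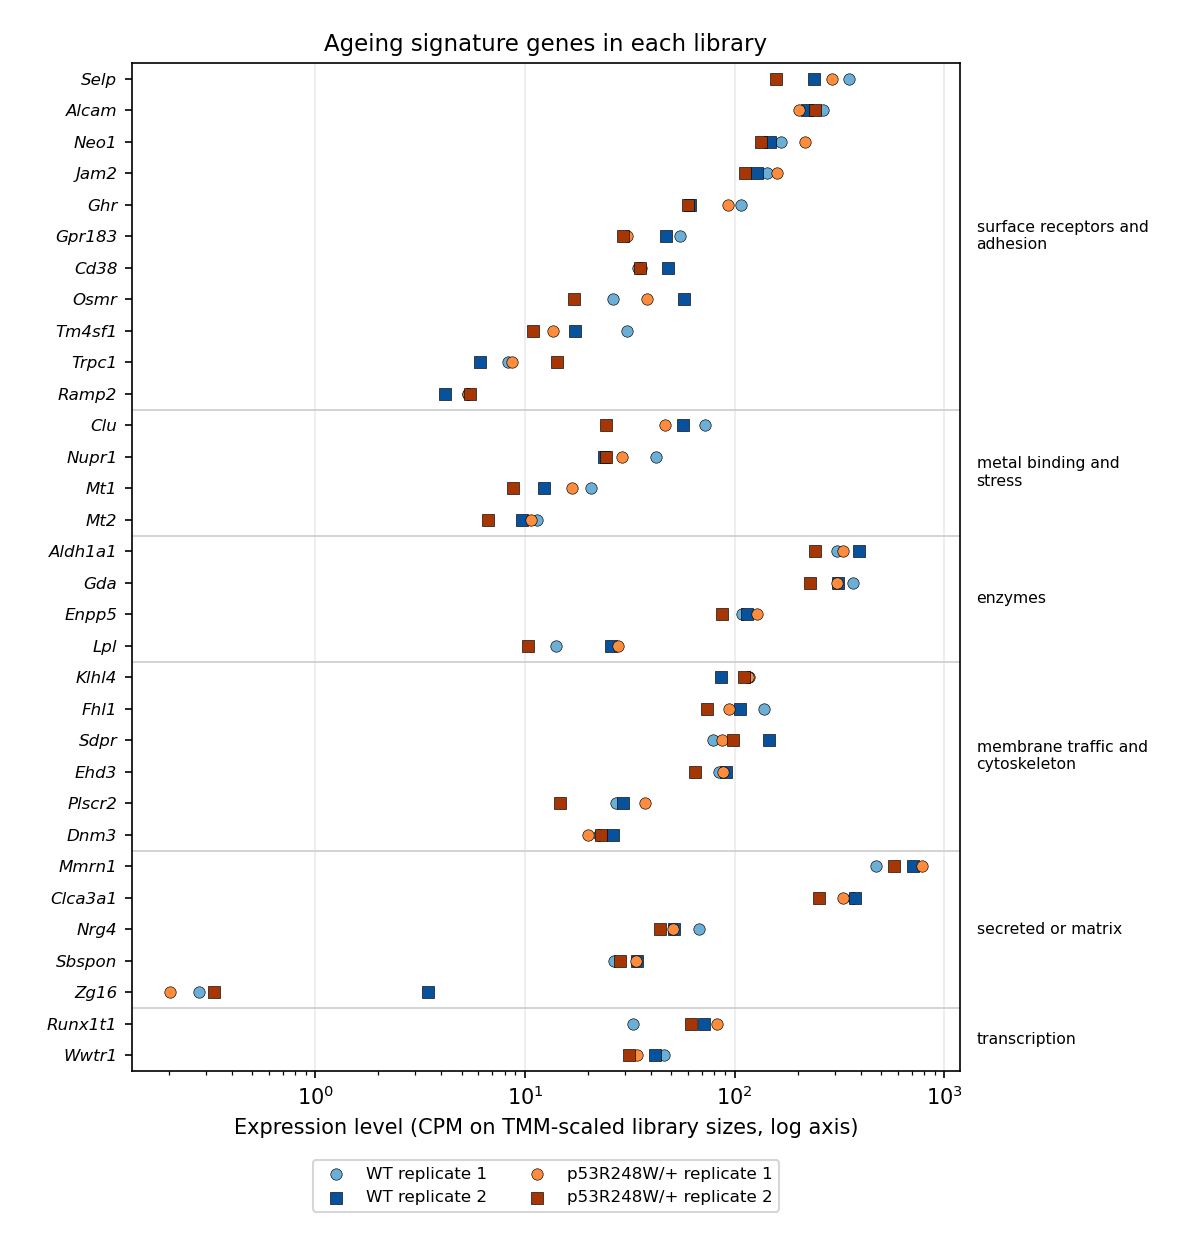
Expression level of each of the 32 ageing signature genes in each of the 4 libraries (x axis, CPM, log scale), grouped by role. The p53R248W/+ replicate 2 library (dark squares) is the lowest of the 4 for 20 of the 31 tested genes, and Zg16 is near the detection floor in all but WT replicate 2.

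Levels can be compared between genes only per exon length. Per kilobase of exon, averaged over the 4 libraries, Aldh1a1 was highest at 156 CPM per kb, and its libraries (118 to 192) overlapped those of Mmrn1 (102 to 169.5, mean 137). All libraries of Mmrn1 lay above all libraries of the next gene, Clca3a1 (64.9 to 96.5 CPM per kb). Selp followed at 75.5 and Gda at 56.2 CPM per kb. From Clca3a1 down to Dnm3, the lowest tested member at 3.06 CPM per kb, each gene's libraries overlapped those of the next in order, so neighbours in this order did not differ beyond their spread. The tested members spanned 51.1-fold on this scale.

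The lower values of the members were mainly those of 1 library. Of the 31 tested members, p53R248W/+ replicate 2 was the lowest of the 4 libraries for 20, against 22.5% of all tested genes. p53R248W/+ replicate 1 was the lowest for 2 members, against 26.9% of all genes. Against the mean of the WT libraries, p53R248W/+ replicate 2 was lower for 27 members with a median log2 ratio of -0.45, and p53R248W/+ replicate 1 was lower for 16 with a median of -0.03. Set against single WT libraries, p53R248W/+ replicate 1 was lower for 17 members (WT replicate 1, with 49.8% of all genes lower) and 16 members (WT replicate 2, 49.5%). The median log2 ratio of p53R248W/+ replicate 2 to p53R248W/+ replicate 1, -0.41 with 26 of 31 members lower (50.3% of all genes), was close to its ratios to WT replicate 1 (-0.42, 23 members) and WT replicate 2 (-0.43, 26 members). In the last pairs 49.3% and 50.8% of all tested genes were lower. Between the WT libraries, replicate 2 was below replicate 1 for 18 members, with a median of -0.18 (49.3% of all genes). The members' median fold change was -0.13 without WT replicate 1 and -0.10 without WT replicate 2. The 16 members below the WT mean in p53R248W/+ replicate 1 were also below it in replicate 2. They included Tm4sf1, Gpr183, Clu, Fhl1 and Wwtr1, at -0.36 to -0.81 in replicate 1 and -0.49 to -1.41 in replicate 2. Lpl, Plscr2 and Neo1 were at 0.40 to 0.48 in replicate 1 and at -0.23 to -0.95 in replicate 2.

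**Figure D3:**
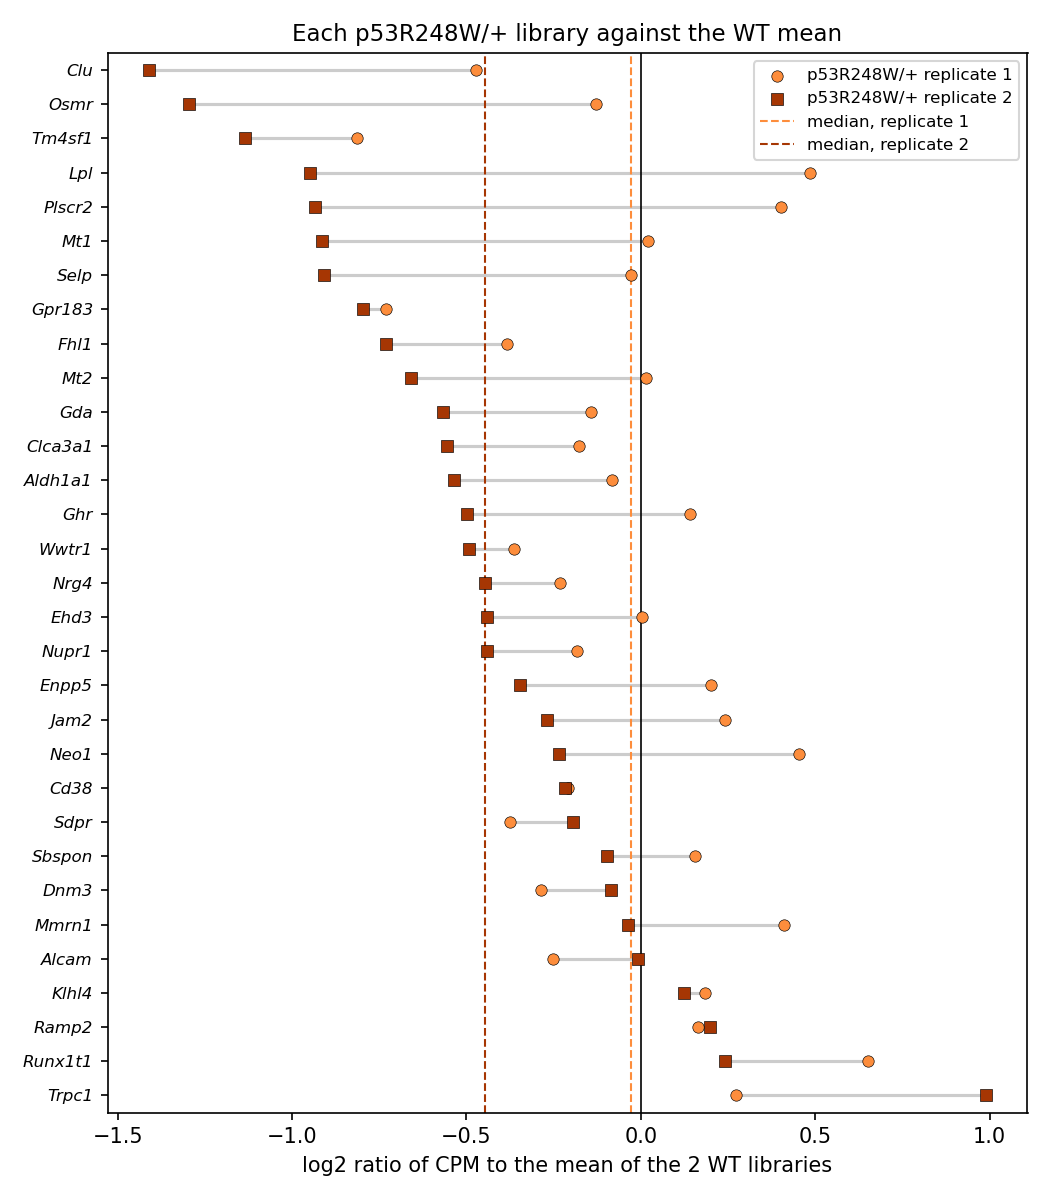
Log2 ratio of each p53R248W/+ library to the mean of the 2 WT libraries (x axis) for each tested ageing signature gene, with the 2 libraries joined by a line. The median of replicate 1 (circles) is -0.03 and that of replicate 2 (squares) is -0.45.

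Gene lists for the cell types of the LSK gate were read in the same libraries. The summed level of the members was 3620 and 3697 CPM in the WT pair and 3749 and 2829.5 CPM in p53R248W/+, so replicate 2 stood apart. The 14 stem cell identity genes did not share that pattern: their sum was 3857 and 4341 CPM in the WT pair and 5220 and 4509 CPM in p53R248W/+, and 10 of the 14 had positive log2 fold changes (median 0.29). Hlf, a transcription factor of stem cells, was at 929 and 1141 CPM in the WT pair and 1197 and 1265 CPM in p53R248W/+. Procr, the receptor EPCR used to enrich stem cells, was at 53.6 and 70.5 CPM in the WT pair and 51.0 and 73.2 CPM. Progenitor and lymphoid genes stood highest in p53R248W/+ replicate 2. The 5 multipotent progenitor genes summed to 732 and 507 CPM in the WT pair and 535 and 830 CPM in p53R248W/+, and the 9 lymphoid genes reported to fall in stem cells of old mice to 630 and 494 CPM and 575 and 982 CPM; Flt3 is in both lists. Flt3, the receptor that marks multipotent progenitors, was at 117 and 106 CPM in the WT pair and at 106 and 219 CPM in p53R248W/+. Dntt, the DNA polymerase of early lymphoid cells, was at 93.3 and 114 CPM in the WT pair and 155 and 284 CPM. Of these 9 lymphoid genes 8 had positive log2 fold changes, with a median of 1.07, and none passed over all genes. Without p53R248W/+ replicate 2, Flt3, Rag1, Satb1 and Notch1 turned to -0.08, -1.02, -0.28 and -0.09, and Sox4 was at -0.75. Il7r, Dntt, Blnk and Lef1 stayed positive in that fit, at 1.55, 0.58, 3.27 and 0.11. The part of cell composition in the members' values was not tested.

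Several members are also made by endothelial cells, megakaryocytes, stroma or macrophages. The 10 endothelial genes summed to 141 and 91.9 CPM in the WT pair and 160 and 155 CPM in p53R248W/+, with 4 of 8 tested genes on each side, and the 9 megakaryocyte and platelet genes to 40.0 and 79.0 CPM and 64.8 and 37.1 CPM, with Gp6 at 0 in all libraries. The 9 stromal genes summed to 47.0 and 36.3 CPM in the WT pair and 84.2 and 36.8 CPM, and the 7 macrophage genes to 49.1 and 30.7 CPM and 37.4 and 59.2 CPM. Of these 4 sums the endothelial one was higher in both p53R248W/+ libraries, and most of it was Pecam1, an adhesion molecule that blood cells also carry, at 70.4 and 50.7 CPM in the WT pair and 105 and 100.4 CPM in p53R248W/+. The median log2 fold change of the 8 tested endothelial genes had the opposite sign, -0.47, with Cldn5, Flt4, Stab2 and Plvap negative. That median fell between Plvap at -1.10 (22 and 1 counts in the WT pair, 1 and 9 in p53R248W/+) and Sox18 at 0.15. Without WT replicate 1, Cldn5 and Stab2 turned to 1.34 and 0.30, and Flt4 was at -3.03. The 10 immediate early genes, which respond within minutes to handling, summed to 7049 and 4435 CPM in the WT pair and 3428 and 3947 CPM in p53R248W/+, all 10 with negative log2 fold changes. Their sum was highest in WT replicate 1, and their part in the members' values was not tested.

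**Figure D4:**
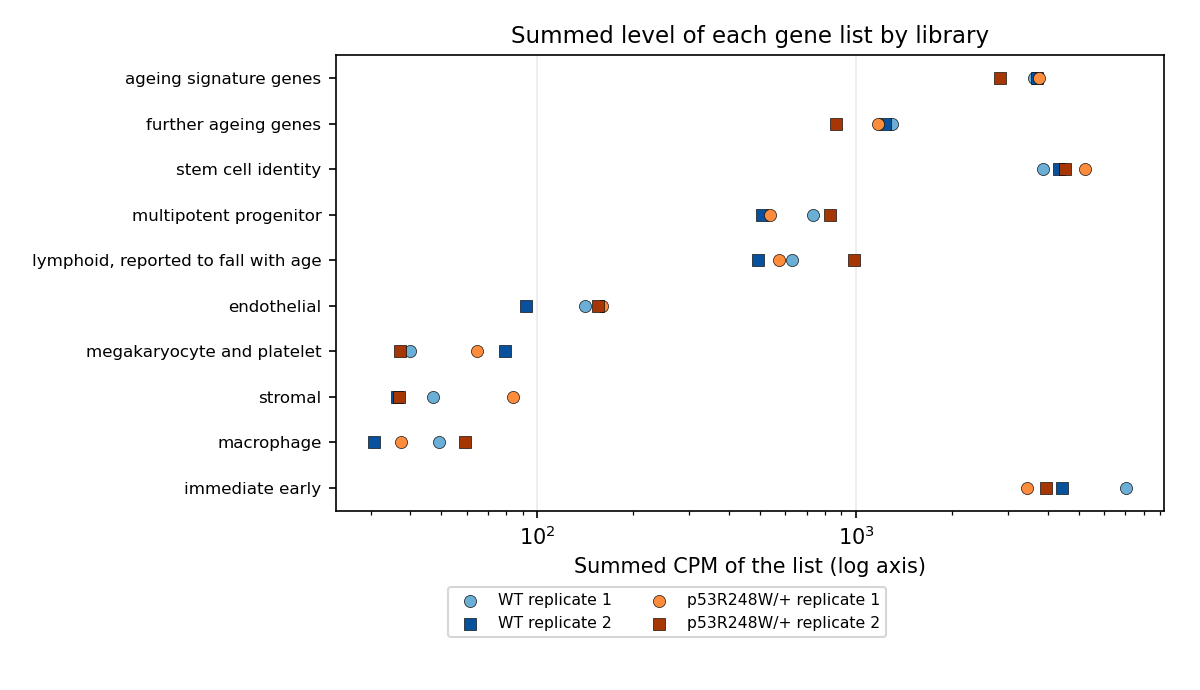
Summed CPM of each gene list (x axis, log scale) in each of the 4 libraries. The ageing signature genes are lowest, and the multipotent progenitor and lymphoid lists highest, in p53R248W/+ replicate 2, while the stem cell identity list is lowest in WT replicate 1.

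Further genes of the signature had the same sign. Itgb3, Vwf, Slamf1, Sult1a1 and Itga2b all had negative log2 fold changes, and none passed over all genes. Slamf1, a receptor that marks stem cells, was at 75.7 and 67.4 CPM in the WT pair against 66.8 and 40.2 CPM in p53R248W/+, or -0.40 ± 0.32 (SE). Its value was -0.10 without p53R248W/+ replicate 2. Sult1a1, a sulfotransferase, was at 176 and 129 CPM in the WT pair and at 183 and 102 CPM in p53R248W/+, with the p53R248W/+ libraries at the extremes and a log2 fold change of -0.08 ± 0.26 (SE). Itgb3, at 480.5 and 423 CPM in the WT pair against 319.5 and 253 CPM in p53R248W/+, and Itga2b, at 84.5 and 65.1 against 33.7 and 27.8 CPM, encode the 2 chains of the platelet fibrinogen receptor. Both genes were low in both p53R248W/+ libraries, with log2 fold changes of -0.65 ± 0.17 and -1.27 ± 0.34 (SE; both at an adjusted p of 0.824 in the edgeR quasi-likelihood test), and were still at -0.50 and -1.15 without p53R248W/+ replicate 2. Vwf, von Willebrand factor, was at 483 and 553 CPM in the WT pair and at 564 and 440 CPM in p53R248W/+, or -0.04 ± 0.16 (SE). Vwf and Sult1a1 turned to 0.12 and 0.27 without p53R248W/+ replicate 2.

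RefSeq promoter windows of 300 bases, from 250 before to 50 after the start, were matched by symbol for 22 of the 32 members, with 26 windows in all. Motifs were searched on both strands, and overlaps between motifs were allowed. The metal response element core was in 6 of the 26 windows (23.1%), those of Selp, Tm4sf1, Mmrn1, Mt1, Mt2 and Ghr, against 25.7% of all 32851 windows. The GATA motif AGATAA was in 4 (15.4%, against 11.2%), the RUNX motif TGTGGT in 4 (15.4%, against 16.8%), the TEAD motif in 3 (11.5%, against 14.7%) and the ETS motif CCGGAA in 2 (7.69%, against 14.9%). The p53 half-site was in 1 window, that of Tm4sf1 (3.85%, against 8.36%). These shares describe letters in the windows, not binding.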

How the data were processed

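Messenger RNA was sequenced from sorted LSK cells in 2 WT and 2 p53R248W/+ libraries, grouped by sample title. The deposited table holds the authors' raw read counts for 24421 gene symbols, beside exon positions and lengths. STAR 2.7.10a, featureCounts of Subread 2.0.3, FastQC 0.11.5 and edgeR 3.40.2 are named with build mm10 in the submitters' processing notes. The strand setting and the treatment of multiply aligned reads are not given in the sources used here, so overlapping genes and close paralogs such as the metallothioneins are less certain. Members and lists were chosen with earlier results of these data known.

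Genes were filtered with filterByExpr (minimum count 10, minimum total 15), scaled by TMM and compared with edgeR 4.0.16 in R 4.3.3 (glmQLFit with robust=TRUE and legacy=FALSE, glmQLFTest), genotype being the only term. P-values were Benjamini-Hochberg adjusted over 13296 genes. CPM uses the TMM-scaled sizes of the filtered libraries, and library ratios printed for pairs of libraries added 0.5 CPM. A count of 3, the detection floor, was 0.202 to 0.248 CPM and covers counting error only. Alternatives were median-ratio and total-count scaling, DESeq2 1.42.0, limma-voom (limma 3.58.1), no filter, a stricter filter (a mean of 5 CPM, and 1 CPM in 2 libraries), leaving out single libraries, and a replicate block. The legacy quasi-likelihood method was added after the data were seen. The fit was tested on simulated data with 2-fold and 4-fold changes added. At an adjusted p under 0.05 it recovered 10.6% of the 2-fold and 53.8% of the 4-fold changes. All members were to be named, with full values for those at an unadjusted p under 0.05, for the 6 with the largest non-overlapping differences at a mean of 5 CPM, and for the 6 with the highest CPM; values of the remaining members and of further list genes were chosen after they were seen.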

Additional observations from a re-analysis of the deposited data

How the results depend on the processing

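Over all genes, DESeq2 called 7 genes and the fit without p53R248W/+ replicate 2 called 1, Usp33; the other alternatives called 0, so leaving out single libraries gave 0 to 1. No member was called under any alternative. The members' median log2 fold change ranged from -0.47 (without p53R248W/+ replicate 1) to -0.057 (without p53R248W/+ replicate 2) over the libraries left out. It was -0.25 with DESeq2 and -0.20 with a replicate block. The number of members without overlap was 19 to 22 with 1 library left out, beside 8890 to 9761 of the 14002 to 14093 genes tested, since fewer libraries overlap less often. The replicate block gave 24 negative members and 0 calls over all genes; the labels do not say what same-numbered libraries share, and their deviations from the genotype means correlated at -0.0074 across genes, so the block stayed an alternative. The block turned Jam2 to -0.0027 and no other member. Scaling, filter and test turned no member. With single libraries left out the sign turned for 17 of 31 members, over these ranges: Sbspon -0.13 to 0.24, Sdpr -0.66 to 0.24, Ghr -0.50 to 0.32, Osmr -1.29 to 0.12, Alcam -0.25 to 0.0073, Jam2 -0.27 to 0.24, Enpp5 -0.35 to 0.20, Ehd3 -0.44 to 0.0014, Cd38 -0.43 to 0.047, Mmrn1 -0.054 to 0.53, Nupr1 -0.65 to 0.18, Lpl -0.95 to 0.50, Mt2 -0.66 to 0.012, Mt1 -0.91 to 0.091, Neo1 -0.23 to 0.45, Plscr2 -0.93 to 0.40 and Klhl4 -0.042 to 0.40. The cause of these shifts was not tested. Zg16 missed the count filter, with 49 counts in 1 library and 3 or 4 in the others, and with 2 libraries per genotype the SE of members was 0.17 to 0.81, widest for Ramp2.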
